A study of Mus musculus with 6 samples.

Results

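Transcripts of 10 neutrophil granule and calprotectin genes were followed in mouse bone marrow-derived macrophages that had been co-cultured with mEC25 cells, which the labels call a cancer line. The genes were Elane, Mpo, Prtn3 and Ctsg of the azurophil granule, Lcn2, Camp, Ngp and Ltf of the specific granule, and S100a8 and S100a9, whose products form calprotectin. They were chosen by gene symbol, and all 10 were found, each as 1 row, among 56691 genes. The bone marrow cells had been treated with M-CSF, the macrophage growth factor, in every sample, and the macrophages were sorted after the co-culture. In the contact group (3 libraries) they had touched the cancer cells, and in the transwell group (3 libraries) they had been kept from touching them. The sources used here do not give the strain, the age, the time in co-culture or the sorting gate. Whether the replicates are separate animals or cultures is not in the labels either, so the spread behind the p-values may be technical. The libraries held between 18173192 and 22563835 counts, and every contact library was deeper than every transwell library.

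Neutrophils store antimicrobial proteins in granules that are filled in sequence as the cell matures in the bone marrow. Azurophil granules are filled first, at the promyelocyte stage, with myeloperoxidase and the serine proteases neutrophil elastase, proteinase 3 and cathepsin G, and transcription of these genes normally stops before the neutrophil leaves the marrow. Specific granules are filled later with lactoferrin, cathelicidin and lipocalin-2, while S100A8 and S100A9 lie in the cytosol. Monocytes and their progenitors also make myeloperoxidase and the azurophil proteases, and macrophages can induce lipocalin-2 and calprotectin during inflammation. In bulk RNA, more cells of a type and more RNA per cell cannot be told apart.

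The 10 genes were searched for 3 short motifs in the promoter windows of RefSeq, which run from 250 bases before to 50 bases after the gene start on GRCm38.p6 and were found for all 10 genes. The 4 azurophil genes are shown first because all of them rose and all hold 1 motif, the letters AGGAAGT, a core of sites for the myeloid factor PU.1. Capitals mark the motif, and the bases given are those of the window that lie before the first annotated exon base of the gene within the window, 5′ to 3′ on the strand of the gene: chr10:79886062-79886246 on the plus strand for Elane, chr11:87793534-87793580 on the plus strand for Mpo, chr10:79879417-79879613 on the plus strand for Prtn3 and chr14:56102575-56102824 on the minus strand for Ctsg. The stretch of Prtn3 lies inside a longer annotated transcript of Prtn3, in an intron.
Elane: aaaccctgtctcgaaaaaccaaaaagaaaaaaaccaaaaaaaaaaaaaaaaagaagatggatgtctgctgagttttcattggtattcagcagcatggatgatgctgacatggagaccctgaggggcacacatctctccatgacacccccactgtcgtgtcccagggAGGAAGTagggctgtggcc
Mpo: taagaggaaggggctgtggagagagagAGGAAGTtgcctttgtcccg
Prtn3: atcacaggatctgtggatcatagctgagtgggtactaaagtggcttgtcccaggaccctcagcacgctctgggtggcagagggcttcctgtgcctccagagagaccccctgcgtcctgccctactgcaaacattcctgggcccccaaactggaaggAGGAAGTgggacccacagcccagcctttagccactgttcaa
Ctsg: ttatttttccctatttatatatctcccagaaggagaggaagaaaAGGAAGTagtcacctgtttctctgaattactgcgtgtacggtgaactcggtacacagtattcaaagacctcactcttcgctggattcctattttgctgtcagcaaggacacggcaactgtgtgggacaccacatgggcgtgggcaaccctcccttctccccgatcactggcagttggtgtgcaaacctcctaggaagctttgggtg
On either strand, AGGAAGT was found in all 4 azurophil windows and in 1 of the 6 others, that of S100a8, against 3072 of 32851 windows (9.35%). The letters TTNNGCAA, for C/EBP factors, were found in the windows of Lcn2, Ngp, Ltf and S100a9 and in 0 of the 4 azurophil windows, against 10.8% of all windows. For NF-kB only 1 form of the site was searched, with 2 T bases fixed in its middle. It was found in 0 of the 10 windows, against 4.79%. Sites with other bases there would be missed, so whether the windows hold other NF-kB sites was not tested. The stretches of Ngp (chr9:110419558-110419746, plus strand), Ltf (chr9:111019042-111019270, plus strand) and S100a8 (chr3:90668821-90668977, plus strand) show 3 of the other matches, again in capitals. The matches of Ngp and S100a8 lie on the strand opposite to the gene, so they are printed as the reverse complement of the motif; that of Ltf lies on the strand of the gene.
Ngp: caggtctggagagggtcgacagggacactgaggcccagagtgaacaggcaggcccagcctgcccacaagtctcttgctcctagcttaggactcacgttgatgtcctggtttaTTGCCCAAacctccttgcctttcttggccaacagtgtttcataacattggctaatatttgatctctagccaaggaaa
Ltf: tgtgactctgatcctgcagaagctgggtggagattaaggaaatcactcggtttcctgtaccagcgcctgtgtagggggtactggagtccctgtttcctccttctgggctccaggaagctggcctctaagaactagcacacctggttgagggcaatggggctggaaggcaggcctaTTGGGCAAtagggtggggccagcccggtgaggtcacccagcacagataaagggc
S100a8: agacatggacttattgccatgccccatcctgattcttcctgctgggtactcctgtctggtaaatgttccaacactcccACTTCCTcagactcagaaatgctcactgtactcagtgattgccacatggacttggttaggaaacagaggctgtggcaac
No 2 of these motifs overlapped in a member's window. The motifs were chosen with the windows in view, and a match describes letters only.

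One library stood apart for these genes. All 10 were highest in transwell 1 among the transwell libraries, at 1.27 to 1.79 times the mean of the group, whereas that library was the highest of its group for 39.6% of the 10197 genes with a mean of at least 1 FPKM in both groups. FPKM is the deposited level normalized by the authors to gene length and library size. Of those genes, 148 (1.45%) reached 1.27 times the group mean there, a cut set by the lowest of the 10. In contact 1 the lowest of the 10 was at 1.06 times the group mean, which 12.4% of those genes reached. In the contact group, contact 1 was the highest for 7 of the 10 genes, against 25.5% of the 10197 genes, contact 2 was the highest for Elane, Mpo and Ctsg, and contact 3 was the lowest for all except Lcn2, which was lowest in contact 2. The genes varied more among replicates than most: their median coefficient of variation was 25.5% in contact and 49.0% in transwell libraries, against 7.51% and 8.55% over the 10197 genes. The plot of the spread among replicates shows each library against its group.

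**Figure D1:**
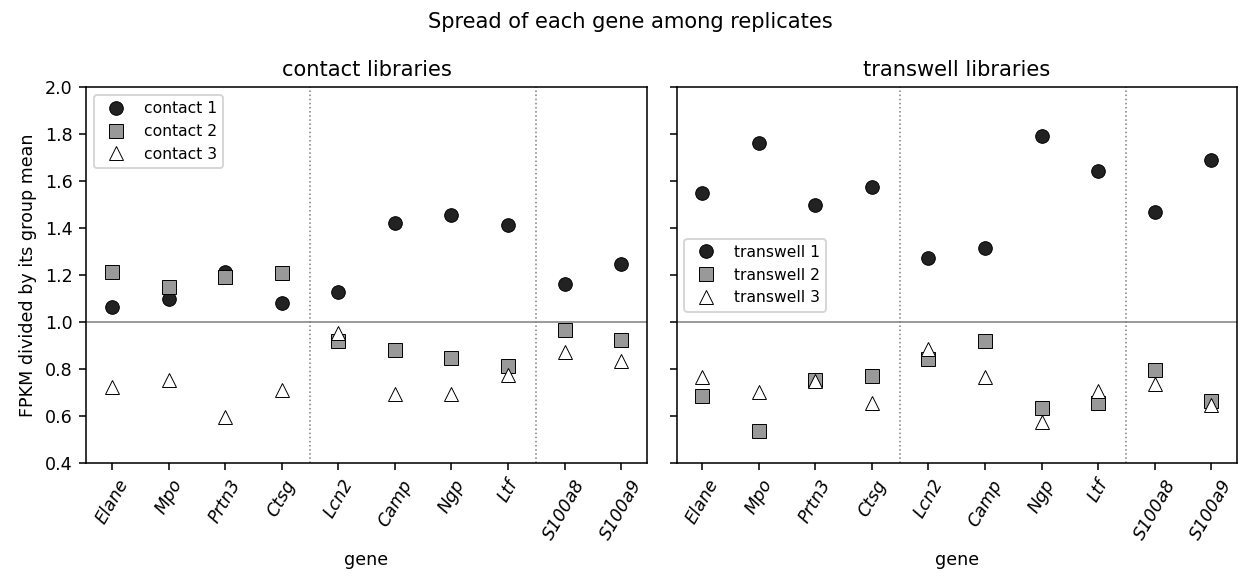
FPKM of each gene divided by the mean of its group, in the 3 contact libraries (left) and the 3 transwell libraries (right), with 1 symbol per library. Every transwell 1 point lies between 1.27 and 1.79, above both other transwell libraries.

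Contact with the cancer cells went with higher transcripts of the azurophil granule and lower Lcn2. All 4 azurophil genes rose, by 1.20 to 2.78 on the log2 scale, Lcn2 fell by 1.72, and the other 5 genes did not pass the test. With edgeR's quasi-likelihood test and an adjusted p threshold of 0.05, 5 of the 10 genes were called, 4 higher and 1 lower in contact. Of all 14113 genes tested, 37.5% were called, 21.4% as higher and 16.1% as lower in contact, so a share of 5 in 10 is not far from the background. Counts by class were 4 of 4 higher for the azurophil granule, 1 of 4 lower and 0 higher for the specific granule, and 0 of 2 for calprotectin. No gene of the specific granule passed an unadjusted p of 0.05 as higher, neither calprotectin gene did in either direction, and DESeq2 and limma gave the same counts. The median log2 change was 2.40 over the azurophil genes, 0.42 over the specific granule genes and 0.07 over the calprotectin genes, beside 0.03 over all genes tested. Without transwell 1, 8 of the 10 genes were called, with Ngp, Ltf and S100a9 added as higher, where 35.7% of all genes tested were called. Without replicate 1 of both groups, a setting chosen after the data were seen, 8 were called too, where 30% of all genes were.

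**Figure D2:**
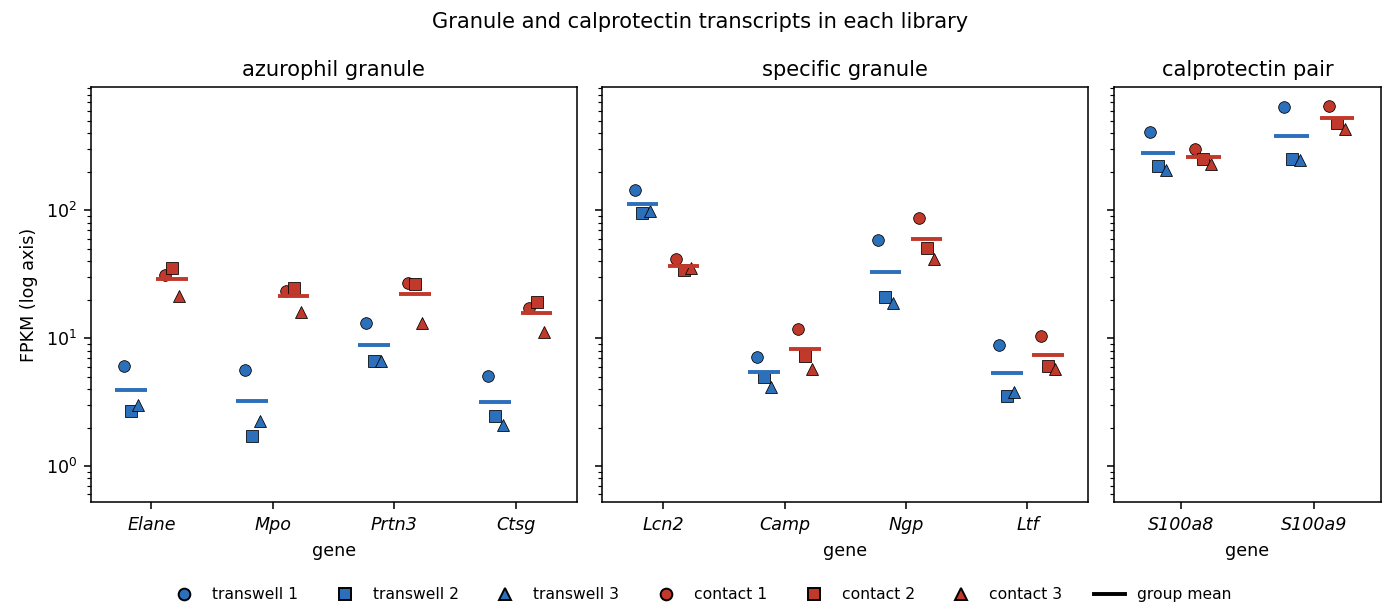
FPKM of each gene in the 3 transwell (blue) and 3 contact (red) libraries on a log axis, with horizontal lines at group means and panels by class. The contact points of Elane, Mpo and Ctsg all lie above the transwell points, those of Lcn2 all lie below, and the points of the other genes overlap.

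Elane (ENSMUSG00000020125, chr10:79886247-79888215 on GRCm38, plus strand) encodes neutrophil elastase, a serine protease that digests bacterial proteins and matrix. Its level was 31.2, 35.5 and 21.2 FPKM in contact libraries 1 to 3 and 6.08, 2.68 and 3.01 FPKM in transwell libraries 1 to 3. Every contact library was well above every transwell library, with the lowest contact value in contact 3 and the highest transwell value in transwell 1. The means were 29.3 ± 7.30 and 3.92 ± 1.88 FPKM (SD, n = 3 each). The edgeR fit, which scales libraries in another way than FPKM does, gave a 6.85-fold difference. That is a log2 change of 2.78 ± 0.29 (SE, 95% interval 2.12 to 3.43, edgeR adjusted p = 6.26e-05). Prtn3 (ENSMUSG00000057729, chr10:79874476-79883174, plus strand) encodes proteinase 3 and ends 3072 bases before Elane on the same strand. It measured 26.9, 26.5 and 13.2 FPKM in contact and 13.3, 6.67 and 6.65 FPKM in transwell libraries. Here the groups touched: contact 3 lay just below transwell 1. The log2 change was 1.20 ± 0.32 (SE; 95% interval 0.49 to 1.92; edgeR adjusted p = 0.0148), a 2.30-fold rise. The call of Prtn3 was lost without contact 1 (1.03, edgeR adjusted p = 0.0577), without contact 2 (1.07, adjusted p = 0.0706) or without transwell 3 (1.03, adjusted p = 0.0688).

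Mpo (ENSMUSG00000009350, chr11:87793581-87804413, plus strand) encodes myeloperoxidase, the heme enzyme that makes hypochlorous acid. Levels were 23.5, 24.6 and 16.2 FPKM in contact and 5.67, 1.72 and 2.25 FPKM in transwell libraries. The groups did not overlap, and transwell 1 was again the nearest to the contact group. Contact minus transwell gave a log2 change of 2.61 ± 0.37 (SE; 95% interval 1.78 to 3.44; edgeR adjusted p = 0.000419), or 6.12-fold, and it was 3.32 without transwell 1 (adjusted p = 6.69e-06). Ctsg (ENSMUSG00000040314, chr14:56099881-56102574, minus strand) encodes cathepsin G, a serine protease with chymotrypsin-like cleavage. It was at 17.1, 19.1 and 11.2 FPKM in contact and 5.02, 2.45 and 2.09 FPKM in transwell libraries, with no overlap. Its log2 change was 2.19 ± 0.31 (SE; 95% interval 1.48 to 2.89; edgeR adjusted p = 0.000461), or 4.55-fold. The smallest count behind any of these values was 40, for Ctsg in transwell 3. The contact values of 3 of the 4 azurophil genes lay wholly above the transwell values, as did those of 35.8% of all genes tested. In either direction, the groups did not overlap for 4 of the 10 genes and for 51.2% of all genes tested.

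**Figure D3:**
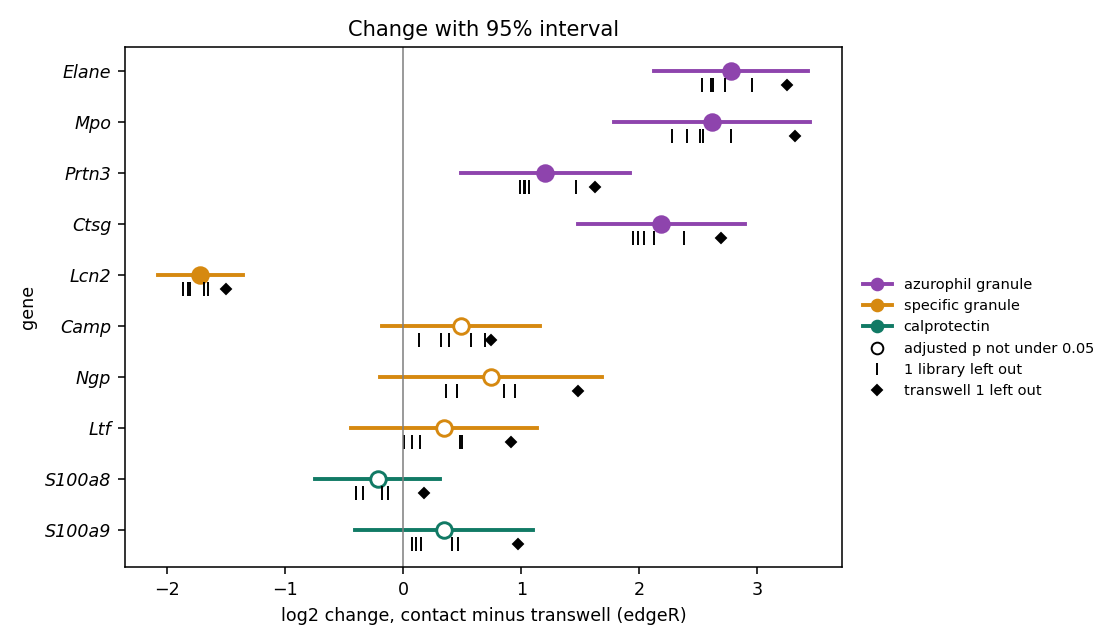
Log2 change of each gene, contact minus transwell, with its 95% interval from edgeR, coloured by class; filled circles passed the adjusted p threshold of 0.05, ticks give the change with 1 library left out and diamonds that without transwell 1. The azurophil genes lie between 1.20 and 2.78 and Lcn2 at -1.72, and leaving out transwell 1 moves all 10 genes towards higher values in contact.

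Of the 4 specific granule genes, Lcn2 alone passed the test with all 6 libraries. Lcn2 (ENSMUSG00000026822, chr2:32384633-32388252, minus strand) encodes lipocalin-2, which binds bacterial siderophores and so withholds iron. It was at 41.8, 34.0 and 35.2 FPKM in contact and 143, 94.8 and 99.3 FPKM in transwell libraries. All contact values were below all transwell values, as for 15.3% of all genes tested, and this held beside the high transwell 1 as well as beside the 2 others. The means were 37.0 ± 4.16 and 112 ± 26.7 FPKM (SD, n = 3 each). The edgeR fit gave a 3.29-fold difference, a log2 change of -1.72 ± 0.16 (SE, 95% interval -2.08 to -1.36, edgeR adjusted p = 3.08e-05). Camp, Ngp and Ltf lie within 1169.65 kb of each other on chromosome 9, at chr9:109847379-109849617 (minus strand), chr9:110419747-110423012 (plus strand) and chr9:111019271-111042767 (plus strand), counted from the end of Camp to the start of Ltf.

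Ngp (ENSMUSG00000032484) encodes neutrophilic granule protein, a cystatin-like protein. It was at 87.1, 50.7 and 41.5 FPKM in contact and 58.9, 20.9 and 18.9 FPKM in transwell libraries. Replicate 1 was the highest in both groups and the groups overlapped: transwell 1 lay above contact 2 and contact 3. The log2 change was 0.74 ± 0.42 (SE; 95% interval -0.20 to 1.69; edgeR adjusted p = 0.201). Without transwell 1 it was 1.48 (edgeR adjusted p = 0.00317) and without replicate 1 of both groups it was 1.10 (adjusted p = 0.000301), whereas without contact 1 it was 0.36 (adjusted p = 0.579). Ltf (ENSMUSG00000032496) encodes lactoferrin, an iron-binding protein. Its values were 10.5, 6.03 and 5.74 FPKM in contact and 8.82, 3.51 and 3.79 FPKM in transwell libraries, again with replicate 1 the highest in both groups. Contact minus transwell gave a log2 change of 0.35 ± 0.35 (SE; 95% interval -0.45 to 1.14; edgeR adjusted p = 0.485), and without transwell 1 it was 0.91 (adjusted p = 0.0196). Without contact 1 it was 0.0076 (edgeR adjusted p = 0.990). Camp (ENSMUSG00000038357) encodes the cathelicidin precursor of an antimicrobial peptide. It measured 11.8, 7.32 and 5.76 FPKM in contact and 7.19, 5.01 and 4.19 FPKM in transwell libraries, which overlapped. The log2 change was 0.49 ± 0.30 (SE; 95% interval -0.18 to 1.16; edgeR adjusted p = 0.237), with 0.74 without transwell 1 (adjusted p = 0.0919) and 0.14 without contact 1 (adjusted p = 0.759). These intervals reach from a small fall to a rise of over 1 log2 unit.

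The calprotectin genes were the most abundant of the 10. S100a8 (ENSMUSG00000056054, chr3:90668978-90670035, plus strand) encodes a calcium- and zinc-binding protein that pairs with S100A9. It was at 304, 253 and 229 FPKM in contact and 412, 223 and 207 FPKM in transwell libraries. The contact values lay inside the transwell range, between transwell 2 and transwell 1. Contact minus transwell gave a log2 change of -0.22 ± 0.24 (SE; 95% interval -0.75 to 0.32; edgeR adjusted p = 0.517), and it turned to 0.18 without transwell 1 (adjusted p = 0.255). S100a9 (ENSMUSG00000056071, chr3:90692632-90695721, minus strand) lies 22596 bases from S100a8 and encodes its partner, and the complex signals through the receptor Tlr4. It was at 655, 485 and 437 FPKM in contact and 643, 252 and 246 FPKM in transwell libraries. Transwell 1 lay within the contact range and both other transwell libraries lay below it. The log2 change was 0.35 ± 0.34 (SE; 95% interval -0.41 to 1.10; edgeR adjusted p = 0.460), and without transwell 1 it was 0.97 (adjusted p = 0.00112). Without transwell 2 it was 0.078 (edgeR adjusted p = 0.869) and without transwell 3 it was 0.11 (adjusted p = 0.859).

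A ratio within a library compares 2 genes whatever their common level in that library. The ratio of S100a8 to S100a9 was 0.465, 0.521 and 0.524 in contact and 0.641, 0.884 and 0.839 in transwell libraries. It was lower in all 3 contact libraries, with a log2 difference of -0.63, at p = 0.1 in an exact two-sided permutation test, the smallest p that 3 libraries against 3 allow. The ratio of Elane to Prtn3, which are neighbours on chromosome 10, was 1.16, 1.34 and 1.61 in contact and 0.459, 0.402 and 0.453 in transwell libraries. Transwell 1 did not stand apart in this ratio, and every contact value was higher. The ratio of Lcn2 to Ngp was 0.480, 0.672 and 0.848 in contact and 2.43, 4.54 and 5.25 in transwell libraries, with no overlap. The last 2 ratios were chosen after their values were seen; each gave exact permutation p = 0.1, and the adjusted p over the 3 ratios was 0.1. Over whole classes, the summed azurophil FPKM was 0.103, 0.143 and 0.0927 times the summed calprotectin FPKM in contact and 0.0285, 0.0285 and 0.0309 times in transwell libraries. In this quotient transwell 1 was level with transwell 2. The summed specific granule FPKM was 0.158, 0.133 and 0.132 times that of calprotectin in contact and 0.207, 0.261 and 0.278 times in transwell libraries, and Lcn2 made up most of the specific granule sum in each transwell library. These sums weight each gene by its level and are given without a test.

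The order of levels, in FPKM, differed between the groups. In contact it was S100a9, S100a8, Ngp, Lcn2, Elane, Prtn3, Mpo, Ctsg, Camp and Ltf by mean. The ranges of S100a9 and S100a8 did not overlap, nor did those of S100a8 and Ngp, while from Ngp down each gene overlapped with the next. In transwell libraries it was S100a9, S100a8, Lcn2, Ngp, Prtn3, Camp, Ltf, Elane, Mpo and Ctsg. There S100a9 and S100a8 overlapped, S100a8 was apart from Lcn2, Lcn2 from Ngp and Ngp from Prtn3, and the 6 lowest genes overlapped with their neighbours. Elane thus stood in place 5 in contact and in place 8 in transwell libraries. The difference in order was not tested.

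Genes with the most similar profile over the 6 libraries were found by Pearson's r of log2(FPKM + 1) among 10445 genes. Because the libraries fall into 2 groups, r for Elane, Mpo, Prtn3, Ctsg and Lcn2 includes that difference, and with 6 points many genes reach a high r. Elane was most like Sparc, Birc5 and Eif4ebp1 (each r = 0.998). Mpo was most like Ly6c2 (0.998), Csnk1g2 (0.998) and Ly6a2 (0.997), and Ctsg most like Marchf2 (0.999), Slc9a5 (0.998) and Smagp (0.996). Prtn3 was most like Nr2c2ap (0.999), Loxl2 (0.994) and Romo1 (0.993), and Lcn2 most like Shisa5 (0.999), Clptm1l (0.999) and Zbtb7b (0.997). Camp was most like Zfp385a (0.985), Hba-a1 (0.985) and Tusc2 (0.982), Ngp most like Wbp1l (0.987), Acap1 (0.985) and Dhrs11 (0.985), and Ltf most like Stk11 (0.980), Yipf3 (0.976) and Ninj1 (0.975). S100a8 was most like Rap1gap2 (0.985), Ccl22 (0.980) and Parl (0.979), and S100a9 most like Pole3 (0.990), Chil3 (0.986) and Tmem14c (0.985). All genes of a library share its depth and processing, and these values are descriptions only.

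Beyond the 10 genes, 19 other granule contents were listed and 18 were tested. Of these 3 rose and 8 fell, with a median log2 change of -0.27, where 21.4% of all genes tested rose and 16.1% fell; the difference from that background was not tested for this or any other list. Those that rose included 2 genes of early granulocytes and neutrophils, Retnlg (2.90) and Ms4a3 (2.32), the latter a marker of granulocyte-monocyte progenitors. Retnlg was at 6.05, 6.21 and 4.79 FPKM in contact and 1.16, 0.09 and 0.82 FPKM in transwell libraries. Its transwell counts were only 13, 1 and 9. Those that fell included Mmp8 (-1.69), the neutrophil collagenase, Slpi (-1.10), an inhibitor of elastase, Cybb (-0.84) and Cyba (-0.38), which form the oxidase that feeds Mpo, Mmp9 (-0.62), Hp (-0.31) and Lyz2 (-0.24). Chil3 had a log2 change of 0.22 and did not pass. Ms4a3 was at 4.54, 4.31 and 1.98 FPKM in contact and 1.24, 0.29 and 0.46 FPKM in transwell libraries. Within the groups it was lowest in contact 3 and highest in transwell 1. So were all of the 10 genes except Lcn2, and others of this list, among them Chil3 and Pglyrp1.

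Of 10 tested transcription factors of myeloid development, 5 were higher in contact and 1, Irf8 (-0.41), was lower. The list is not confined to factors of granulocytes. Over all genes tested, 21.4% were higher and 16.1% lower. Klf4 (2.69), Myb (1.11), a factor of progenitors, and Cebpb (0.55) rose. Myb was low, at 0.72 to 0.93 FPKM in contact and 0.26 to 0.40 FPKM in transwell libraries. Klf4 was at 12.5, 18.5 and 11.3 FPKM in contact libraries 1 to 3, and its share from mEC25 cells was not tested. Spi1, which encodes PU.1, had a log2 change of 0.03 at 153 to 167 FPKM in contact and 136 to 156 FPKM in transwell libraries. Cebpe, needed for specific granules, was at 1.45 to 2.75 FPKM in contact and 0.62 to 1.54 FPKM in transwell libraries and did not pass (edgeR adjusted p = 0.203), nor did Gfi1 (adjusted p = 0.116). Of 10 tested genes for protease processing and protease inhibitors, 3 rose and 3 fell, beside the same background; they include inhibitors of other protease classes, among them Timp1 for metalloproteinases and Cst3 for cysteine proteases. Ctsc, the peptidase that activates elastase, proteinase 3 and cathepsin G, rose by 0.44, and Serpinb1a, which inhibits them, rose by 1.47. Slpi, the elastase inhibitor named above, is in this list too and fell by 1.10, with means of 331 FPKM in contact and 654 FPKM in transwell libraries. Mean levels in contact and transwell libraries were 2.93 and 0.97 FPKM for Serpinb1a, and 1.06 and 2.09 FPKM for Serpinb1b. Timp1 rose by 1.49, Cst3 fell by 0.36, and Serpinb1b fell by 1.10; Serpinb1a and Serpinb1b are paralogs, and how reads they share were counted is unknown. Of 9 tested receptors for calprotectin, lipocalin-2, lactoferrin and cathelicidin, 2 rose and 2 fell, shares near the 21.4% and 16.1% of all genes tested. The number called fell from 4 to 2 without contact 1, without transwell 3 or with limma on log2(FPKM + 1). Cd14, the partner of Tlr4, rose by 1.49, Slc22a17, the lipocalin-2 receptor, rose by 1.87 and was at 0.49 FPKM or less in every library, and Tlr4 fell by 0.59. Bsg (-0.03), Fpr1 (-0.07) and Fpr2 (-0.08) did not pass.

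Acute-phase genes that respond to NF-kB and C/EBP factors, as Lcn2 does, moved in both directions, with 5 of 13 tested genes higher and 4 lower, beside 21.4% and 16.1% of all genes tested, and a median log2 change of 0.11; 14 of the 15 listed symbols were in the table. Il1b (3.05), Il6 (2.23) and Cxcl2 (0.36) rose, as did Steap4, which was at 0.18 to 0.45 FPKM in contact and 0 to 0.02 FPKM in transwell libraries. Saa3 fell by 1.66, close to the change of Lcn2, from 1508 to 1652 FPKM in transwell to 499 to 610 FPKM in contact libraries. C3 (-0.56) and Hp (-0.31) fell, and Acod1 (-0.08) did not pass. The lists here hold genes that also vary in macrophages, and their members were chosen with results of these data known.

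Markers of other cells were set beside the azurophil genes. The neutrophil marker Ly6g was at 0 to 0.20 FPKM in contact and 0 to 0.17 FPKM in transwell libraries, and Cxcr1 at most at 0.15 FPKM. Of all genes tested, 21.4% were higher and 16.1% lower in contact, which is the background for the lists that follow. Of 14 neutrophil markers, which include surface, granule and other products, 12 were tested, 7 were higher and 1, Mmp8, was lower. Their sum was 193 to 208 FPKM in contact and 276 to 301 FPKM in transwell libraries. Without Mmp8 the order of the groups turned, with 122 to 123 FPKM in contact and 58.0 to 65.5 FPKM in transwell libraries. The next most abundant by mean over the 6 libraries were Csf3r (0.71) and Cd24a (0.37, not called). Of 10 myeloid progenitor markers, 9 were tested, 7 were higher and 0 lower (0 also at an unadjusted p of 0.05 by edgeR, and by DESeq2 and limma). Their sum was 152 to 179 FPKM in contact and 72.6 to 96.8 FPKM in transwell libraries, most of it from Igsf6 (0.71). Without Igsf6 it was 14.3 to 20.7 FPKM in contact and 3.37 to 7.19 FPKM in transwell libraries. By mean over the 6 libraries, Sox4 (2.65) and Fcnb (1.22, not called) came next. Sox4 was at 4.06, 5.10 and 3.95 FPKM in contact libraries 1 to 3, and its share from mEC25 cells was not tested. Kit was at 0.69 to 0.93 FPKM in contact and 0.29 to 0.52 FPKM in transwell libraries, and Cd34 at 0.88 to 1.12 and 0.26 to 0.51 FPKM. The part of these cells in the changes of Elane, Mpo, Prtn3 and Ctsg was not tested.

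Epithelial markers separated the groups far more than the granule genes did. Of 32 markers, 27 were tested and all 27 were higher in contact, beside 21.4% of all genes tested. Their sum was 1191, 1793 and 1024 FPKM in contact libraries and 9.72, 10.6 and 10.1 FPKM in transwell libraries, in which Dsg3, Grhl2, Cdh3 and Cldn4 were at 0. The most abundant were Krt5 (336, 511 and 281 FPKM in contact), Krt14 and Krt6a. Contact 2 was the highest and contact 3 the lowest both for this sum and for Elane, Mpo and Ctsg, while Prtn3 was highest in contact 1. Among transwell libraries, transwell 1 had the highest azurophil sum, 30.0 FPKM, and the lowest epithelial sum, 9.72 FPKM. The order among 3 libraries was not tested. mEC25 cells on their own are not analysed here, so the share of the granule transcripts from them was not tested. Of 14 macrophage markers, 5 were higher and 5 lower, beside 21.4% and 16.1% of all genes tested, and 6 in all were called without transwell 3. Their sum was 16481 to 18311 FPKM in contact and 17610 to 18753 FPKM in transwell libraries. By mean over the 6 libraries the most abundant were Lyz2 (-0.24), C1qb (0.14, not called) and Adgre1 (-1.20), while in contact Cd14 (1.49) came after Lyz2. Macrophage markers were thus abundant in all 6 libraries.

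**Figure D4:**
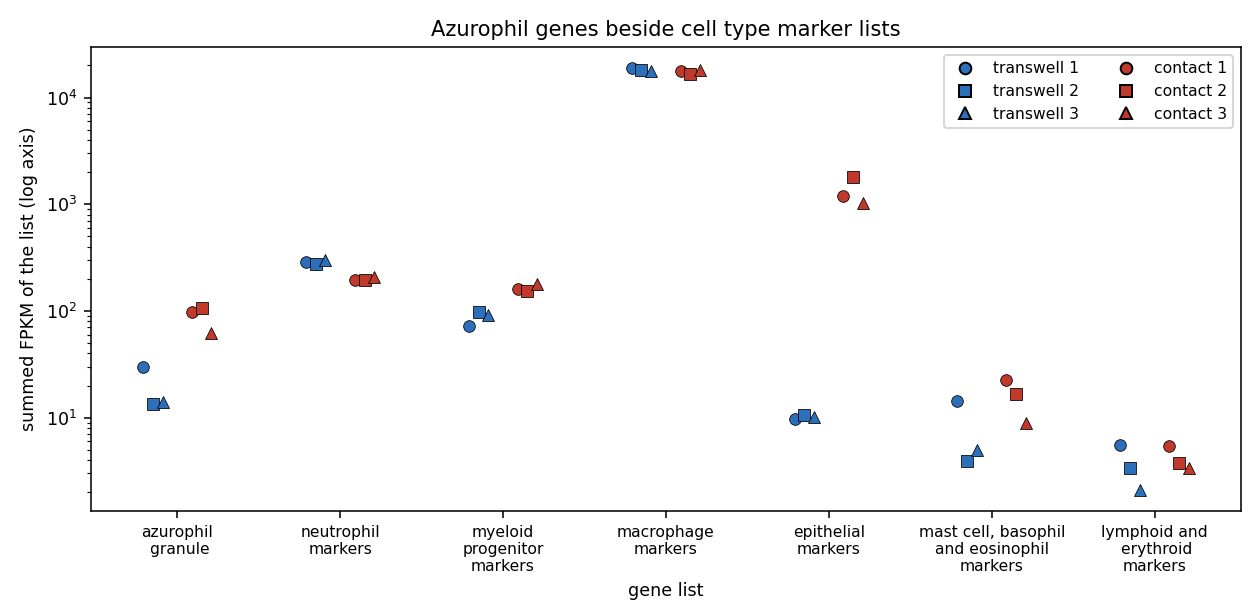
Summed FPKM of the azurophil genes and of each cell type marker list, in the 3 transwell (blue) and 3 contact (red) libraries on a log axis, with 1 symbol per library. The azurophil sums are 61.8 to 106 FPKM in contact and 13.5 to 30.0 FPKM in transwell libraries, and the epithelial sums differ by far more.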

How the data were processed

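RNA was sequenced from 6 libraries, 3 per group, with groups and replicate numbers taken from the sample titles. Per the file headers, the deposited table holds raw read counts by Ensembl gene ID, and FPKM that the authors computed. GRCm38 and mm10 are named in the submitters' processing notes. No source used here gives the aligner, counter, annotation or strand setting, so how reads of overlapping or similar genes were shared out is unknown. Of FPKM values with a count above 100, 99.93% lay within 1% of the value computed from count, length and library total. Positions are from GENCODE M21 by gene ID, and promoter windows from RefSeq on GRCm38.p6.

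After filterByExpr (minimum count 10), 14113 genes were kept, all 10 granule and calprotectin genes among them. They were scaled with TMM and compared by edgeR 4.0.16's quasi-likelihood test (limma 3.58.1, R 4.3.3), two-sided, with Benjamini-Hochberg adjustment at 0.05. The test was tried on simulated counts. Alternatives were other scalings and filters, DESeq2 1.42.0, limma on log2(FPKM + pseudocount) with 1, 0.1 or 0.5, quantile normalization, a replicate block and each library left out. Leaving out replicate 1 of both groups was added after the data were seen. The contact libraries had totals of 22563835, 20911880 and 22200437 counts, and the transwell libraries of 18895818, 18173192 and 18569930. Figures were drawn with matplotlib 3.10.9.

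The members and lists were chosen with earlier results of these data known. Named are all members; of each pathway list the 3 largest called changes and the genes with a mean of at least 100 FPKM in a group; of each marker list the 3 most abundant genes; and the 3 genes most like each member. Cebpe, Gfi1, Irf8, Ly6g, Cxcr1, Kit, Cd34, Dsg3, Grhl2, Cdh3 and Cldn4 were named after their values were seen.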

Additional observations from a re-analysis of the deposited data

How the results depend on the processing

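Of 180 values of single members under alternatives, 162 kept direction and side of the threshold, 4 lost the call, 12 gained one and 2 turned. The calls of Elane, Mpo, Ctsg and Lcn2 held in every setting run. Prtn3 lost its call under limma without a filter (1.23, adjusted p = 0.0731) and without contact 1, contact 2 or transwell 3. The number of members called was 5, and 8 under edgeR without a filter, where Ngp (0.70), S100a8 (-0.26) and S100a9 (0.30) were added. That setting called 21.5% of all genes tested, and its SE for Mpo was 0.12, against 0.37 in the main fit. S100a8 turned to 0.18 without transwell 1 and to 0.051 without replicate 1 of both groups, which left 8 members called. Leaving out 1 library gave 4 to 8 members called, an S100a8 change of -0.40 to 0.18 and 4042 to 5310 genes called (main 5286). Of the 5 pathway lists together, 27 to 36 genes were then called (main 34). The log2 difference in the ratio of S100a8 to S100a9, contact minus transwell, was -0.78 to -0.55 in these settings. Calls over all genes were 3016 higher and 2270 lower, but 3811 and 1422 under limma, 3900 and 1442 with pseudocount 0.1, 3853 and 1428 with 0.5, 3174 and 1107 without a filter, and 2390 and 3418 after quantile normalization. The median of all genes moved by 0.11 with pseudocount 0.1. Over all genes tested, deviations of same-numbered libraries from their group means correlated at -0.08, -0.45 and 0.05. No library correlated best with its own number. The labels do not say whether replicate numbers pair the samples, and deviations from means of 3 libraries cannot exclude it. With the replicate block in edgeR 8 members were called, adding Ngp (0.86, adjusted p = 0.00112), Ltf (0.41, adjusted p = 0.0263) and S100a9 (0.48, adjusted p = 0.0395). That setting called 36.3% of all genes tested. The block lowered the SE of Ngp from 0.42 to 0.14 and that of Lcn2 from 0.16 to 0.088. The causes were not tested. With 3 libraries a group, the intervals of Camp, Ngp, Ltf and S100a9 do not show that these genes were level.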

Other observations

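Transcripts of mast cells, basophils and eosinophils were low. With the filter and all 6 libraries, edgeR called 37.5% of all genes tested. Of 9 markers of these cells, 5 were tested and 0 were called by DESeq2 or by that edgeR fit, 0 at an unadjusted p of 0.05, and 1 by limma. With edgeR, 1 was called without a filter, without transwell 1, without replicate 1 of both groups and with the replicate block. Their sum was 22.4, 16.6 and 9 FPKM in contact and 14.2, 3.92 and 5 FPKM in transwell libraries. Prg2, which encodes eosinophil major basic protein, was at 11.9, 12.3 and 3.92 FPKM in contact and 7.83, 0.72 and 1.80 FPKM in transwell libraries. The basophil proteases Mcpt8 and Prss34 were at 3.91, 1.63 and 1.35 FPKM and at 4.54, 1.88 and 2.66 FPKM in contact, and at 2.02, 0.77 and 0.76 FPKM and 3.21, 1.85 and 1.85 FPKM in transwell libraries. Transwell 1 was the highest of its group for all 3. Of 11 lymphoid and erythroid markers, 3 were tested and 0 were called by DESeq2, limma or edgeR with the filter and all 6 libraries, 0 at an unadjusted p of 0.05. With edgeR, 1 was called without a filter, without contact 3 and without transwell 2. Their sum was 3.39 to 5.43 FPKM in contact and 2.10 to 5.54 FPKM in transwell libraries, led by Hbb-bs, Nkg7 and Hba-a1.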
